A study of Arabidopsis thaliana with 4 samples.

Results

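The genes described here are 55 Arabidopsis thaliana loci of the BAHD acyltransferase family, which was put forward with results of these data known. Members were chosen from a list of locus codes and read from the probe sets that the array annotation pairs with exactly 1 of them. Of the 55 loci, 43 had such a probe set, of 13286 loci with one in the annotation used, and the brightest probe set stood for each locus. The study asked which transcripts change when the transcription factor Dof3.2 is activated. The DEX group, 2 arrays, was RNA from 35S::Dof3.2-GR seedlings given 10 µM dexamethasone for 3 h, and the mock group, 2 arrays, was the same line given a mock treatment. Both groups grew at 22 °C, for 4 days on agar with sucrose and kanamycin and 4 days in shaken liquid medium with sucrose. All seedlings of both groups thus carry the fusion of Dof3.2 to the glucocorticoid receptor domain, driven in nearly all tissues by the constitutive 35S promoter, and how many independent lines were used is not given in the sources used here. Without a group that lacks the fusion, effects of dexamethasone and of Dof3.2 cannot be told apart.

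BAHD acyltransferases move an acyl group from a coenzyme A thioester to an alcohol or an amine, and carry a conserved HXXXD motif in their active site. The family makes many of the esters and amides of plant specialised metabolism: it forms hydroxycinnamate esters on the way to lignin and coumarins, ferulates and caffeates of suberin, malonylated anthocyanins, acylated triterpenes and leaf volatiles. Some members inactivate brassinosteroid hormones, and the CER2-like members act in the elongation of wax precursors. Dof proteins are plant zinc finger transcription factors that bind DNA at sites with an AAAG core.

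The values are MAS5 signals, brightness on a linear scale after the authors scaled each array as a whole. The median signal over all probe sets was 190.6 and 193 on the DEX arrays and 193.3 and 192.8 on the mock arrays. Nothing in the labels says that the replicates came from separate cultures, so every standard error and call rests on variation between arrays that may be purely technical. The labelled tissue, whole seedling, was met by markers of both shoot and root. The summed signal of 5 measured green tissue genes was 52709 to 60415 on the DEX arrays and 57740 to 60039 on the mock arrays. That of 4 measured root genes was 14489 to 15442 on the DEX arrays and 14624 to 15098 on the mock arrays. Of the green tissue genes 0 of the 5, and of the root genes 0 of the 3 bright enough to test, passed the threshold. The root sum consists mostly of PYK10, an abundant root glucosidase gene, which had 13648 and 14584 on the DEX arrays, against 13476 and 14012 on the mock arrays. The root peroxidase gene AT1G30870 had 676 and 664 on the DEX arrays, against 974 and 868 on the mock arrays, with no overlap. Its log2 change was -0.46 ± 0.12 (SE), that of the root hair expansin gene EXPA7 was -0.22 ± 0.20 (SE), and the median of the 3 tested root genes was -0.22. The dim root gene AT3G54580, whose signals may be background, had 24.7 and 18.9 on the DEX arrays, against 17.1 and 7.12 on the mock arrays. It was higher in DEX with no overlap, with a log2 change of 0.97 ± 0.66 (SE) in a fit that included dim probe sets.

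AT4G15390, a BAHD gene whose product has no role assigned here, was lower on both DEX arrays than on both mock arrays. Its signal was 1681 and 1707 on the DEX arrays, against 2925 and 4172 on the mock arrays. The DEX arrays lay close together, the mock arrays lay further apart, and the groups did not overlap. The mean was 1694 ± 18.4 in DEX seedlings and 3549 ± 881 in mock seedlings (SD, n = 2 each). The fitted log2 change, DEX minus mock, was -1.04 with a 95% interval of -1.39 to -0.70, which is a 2.06-fold fall. Over the 4 ways to set a DEX array against a mock array, the log2 difference ran from -1.31 to -0.78. The fall was the 24th largest of the 7075 tested probe sets with a negative change. The family was put forward with results of this contrast known, and this gene was among them, so its values are given as a description and nothing is read from them about the family. In whole seedlings, fewer cells of a type and less RNA per cell cannot be told apart. The root and green tissue sums above overlapped between the groups. Of the green tissue genes, PORB was lower on both DEX arrays and SBPASE was higher on both, with log2 changes of -0.23 and 0.14. RCA, PRK and LHCB4.2 overlapped. Of the 4 root genes, AT1G30870 was lower on both DEX arrays, PYK10 and EXPA7 overlapped, and the dim AT3G54580 was higher on both. The part of root or green tissue content in the AT4G15390 difference was not tested.

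A call here means an adjusted p under 0.05 in a limma fit across the 13648 probe sets whose mean log2 signal reached the 40th percentile, a signal of about 111. Of the 43 measured BAHD loci, 18 reached that level and 25 did not. Among the 18, 1 was called, AT4G15390, as lower, and 17 were not. Of all tested probe sets 0.586% were called, 0.293% as lower and 0.293% as higher. The call on AT4G15390 ended without DEX replicate 1 and without DEX replicate 2, where the log2 change was -1.03 and -1.06, and also without the filter or with variances that do not follow the mean. Without mock replicate 1 the log2 change was -1.30, and without mock replicate 2 it was -0.79. With an array left out, the group of 1 is assumed to vary like the other group. The plot of AT4G15390 under each setting shows these values with their intervals.

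**Figure D1:**
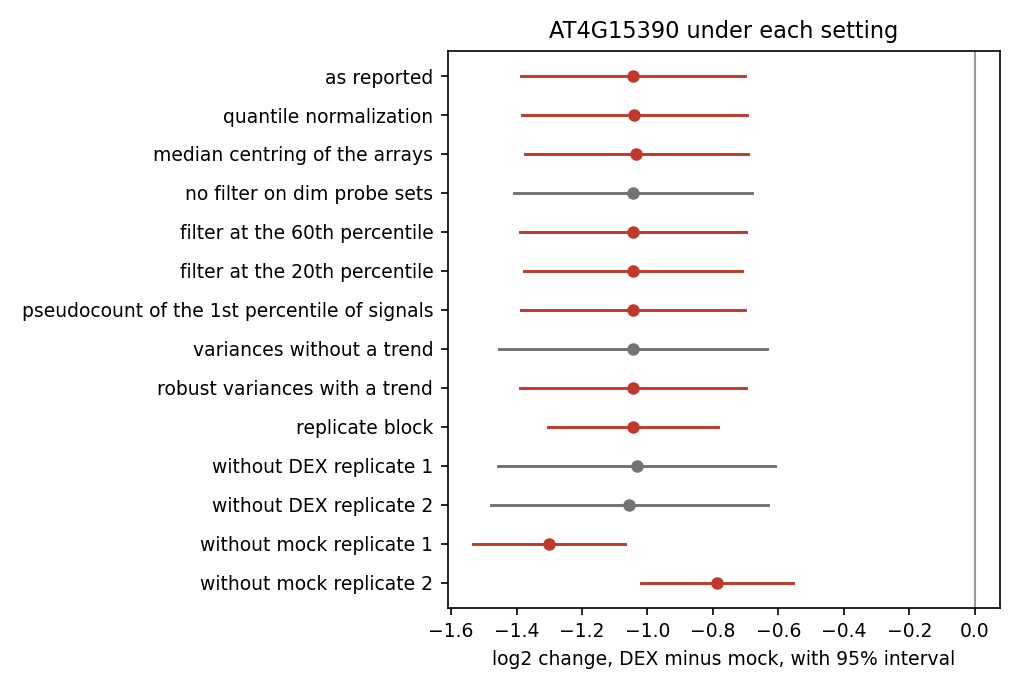
Log2 change of AT4G15390, DEX minus mock, with its 95% interval (horizontal axis) under the reported setting and each alternative (rows). Red marks an adjusted p under 0.05 and grey one at or over it. Every interval lies below 0, and the value without mock replicate 1, -1.30, and that without mock replicate 2, -0.79, are the outermost. As the groups did not overlap, the sign could not turn with an array left out.

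The other 17 tested BAHD genes had log2 changes between -0.22 and 0.28. Over all 18 the number of positive and negative changes was 9 each, and the median log2 change was -8.7e-05, against -0.0065 over all tested probe sets. The median size of a change, its sign left aside, was 0.11 for the 18 genes and 0.11 for all tested probe sets. In 6 of the 18 the DEX and mock arrays did not overlap, 3 lower and 3 higher in DEX. Over all tested probe sets 39.3% did not overlap, 21.1% lower and 18.2% higher. In 4 of the 18 the change was larger than the difference between the DEX arrays and that between the mock arrays, as in 27% of all tested probe sets. In 10 of the 17 uncalled genes it was smaller than both. All 17 intervals lay within 1 log2 unit of 0, so a 2-fold change in either direction lay outside each of them, and 12 lay within 0.5. The outermost bounds were -0.73, for AT2G40230, and 0.63, for AT5G07870.

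**Figure D2:**
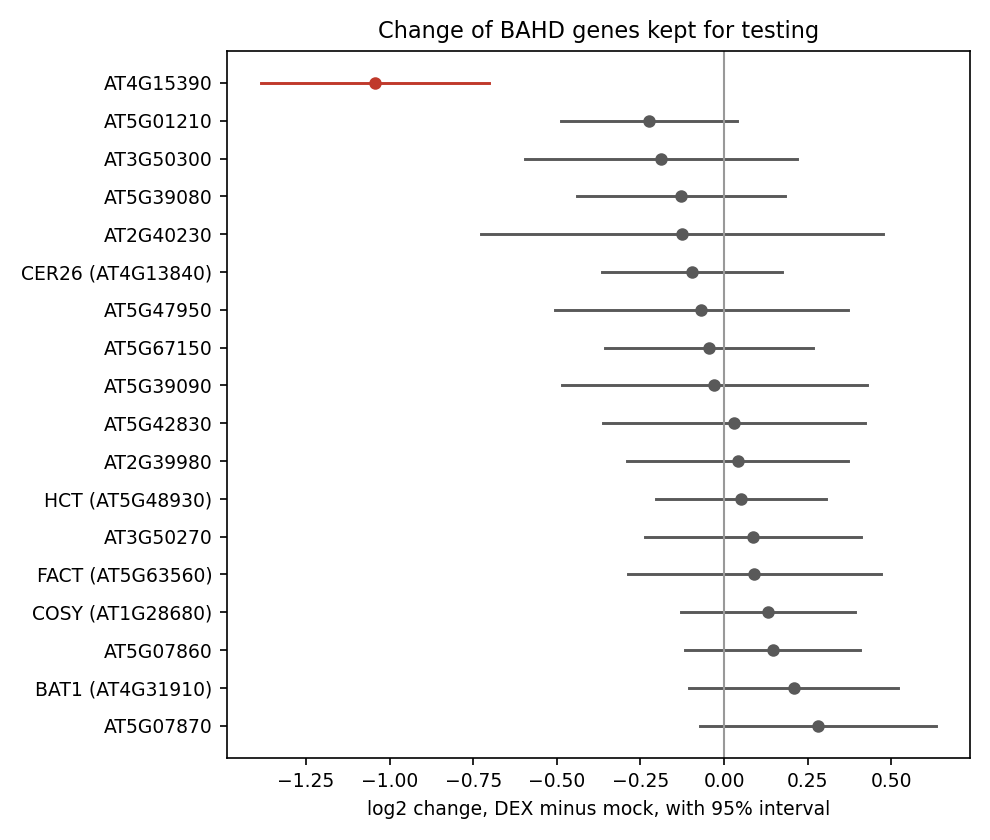
Log2 change, DEX minus mock, with its 95% interval (horizontal axis) for the 18 BAHD genes bright enough to test (rows). Red marks the 1 gene with an adjusted p under 0.05, AT4G15390 at -1.04, and grey the 17 others, which lie between -0.22 and 0.28.

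Of the tested genes for phenolic ester and coumarin enzymes, none passed the threshold. HCT (AT5G48930), the hydroxycinnamoyl transferase that forms the shikimate esters of lignin synthesis, had signals of 2725 and 2417 on the DEX arrays, against 2632 and 2332 on the mock arrays. The groups overlapped, and its log2 change was 0.05 with an interval of -0.20 to 0.30. AT1G28680, known as COSY, an enzyme that closes the coumarin ring on the way to scopoletin, had 1167 and 1023 on the DEX arrays, against 969 and 1026 on the mock arrays. Its DEX replicate 2 lay just under mock replicate 2, and the log2 change was 0.13 with an interval of -0.13 to 0.39. FACT (AT5G63560), which makes the alkyl caffeates of root wax, had 292 and 238 on the DEX arrays, against 225 and 272 on the mock arrays. Its groups overlapped, with a log2 change of 0.09 and an interval of -0.29 to 0.47.

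In the hormone and wax branches, BAT1 (AT4G31910), an acyltransferase that lowers active brassinosteroids, had 307 and 333 on the DEX arrays, against 283 and 271 on the mock arrays. Both DEX arrays lay above both mock arrays, and the log2 change of 0.21, with an interval of -0.11 to 0.52, did not pass the threshold. AT4G13840, known as CER26, a CER2-like gene of leaf wax elongation, had 1276 and 1102 on the DEX arrays, against 1340 and 1200 on the mock arrays. Its groups overlapped, and the log2 change was -0.10 with an interval of -0.37 to 0.17.

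AT5G39080 and AT5G39090 stand near PMAT1 (AT5G39050), a malonyltransferase of phenolic glucosides, in the RefSeq gene order. AT5G39080 had 591 and 719 on the DEX arrays, against 768 and 662 on the mock arrays. AT5G39090 had 148 and 108 on the DEX arrays, against 128 and 130 on the mock arrays. Both genes overlapped between the groups, with log2 changes of -0.13 ± 0.14 and -0.03 ± 0.20 (SE). AT5G47950, an acyltransferase gene near the thalianol cluster, in which neighbouring genes make a root triterpene, had 131 and 104 on the DEX arrays, against 117 and 128 on the mock arrays. Its groups overlapped too, and the log2 change was -0.07 with an interval of -0.51 to 0.37.

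Besides AT4G15390, 9 tested genes have no role assigned here, and none of them was called. AT5G07870 had 313 and 255 on the DEX arrays, against 238 and 227 on the mock arrays, and a log2 change of 0.28 ± 0.16 (SE). AT5G07860, its neighbour, had 620 and 621 on the DEX arrays, against 556 and 567 on the mock arrays, and a log2 change of 0.15 ± 0.12 (SE). In both neighbours the DEX arrays lay above the mock arrays, by less than the threshold requires.

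AT5G01210 had 1467 and 1453 on the DEX arrays, against 1559 and 1867 on the mock arrays, and a log2 change of -0.22 ± 0.12 (SE). AT3G50300 had 119 and 110 on the DEX arrays, against 125 and 135 on the mock arrays, and a log2 change of -0.19 ± 0.18 (SE). These were the 2 uncalled genes whose DEX arrays both lay below both mock arrays, and their intervals reached up to 0.04 and 0.22.

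The remaining 5 overlapped between the groups. AT2G40230 had 160 and 97.8 on the DEX arrays, against 166 and 112 on the mock arrays, and the widest standard error of the 18, 0.27. AT3G50270 had 397 and 485 on the DEX arrays, against 432 and 396 on the mock arrays. For these genes the arrays of each group lay further apart than the group means did.

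AT5G67150 had 525 and 458 on the DEX arrays, against 467 and 549 on the mock arrays. AT2G39980 had 598 and 576 on the DEX arrays, against 499 and 654 on the mock arrays. AT5G42830 had 358 and 418 on the DEX arrays, against 321 and 446 on the mock arrays. In AT2G39980 and AT5G42830 both DEX values lay between the mock values. Over these 5 genes the log2 changes ran from -0.13 for AT2G40230 to 0.09 for AT3G50270.

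**Figure D3:**
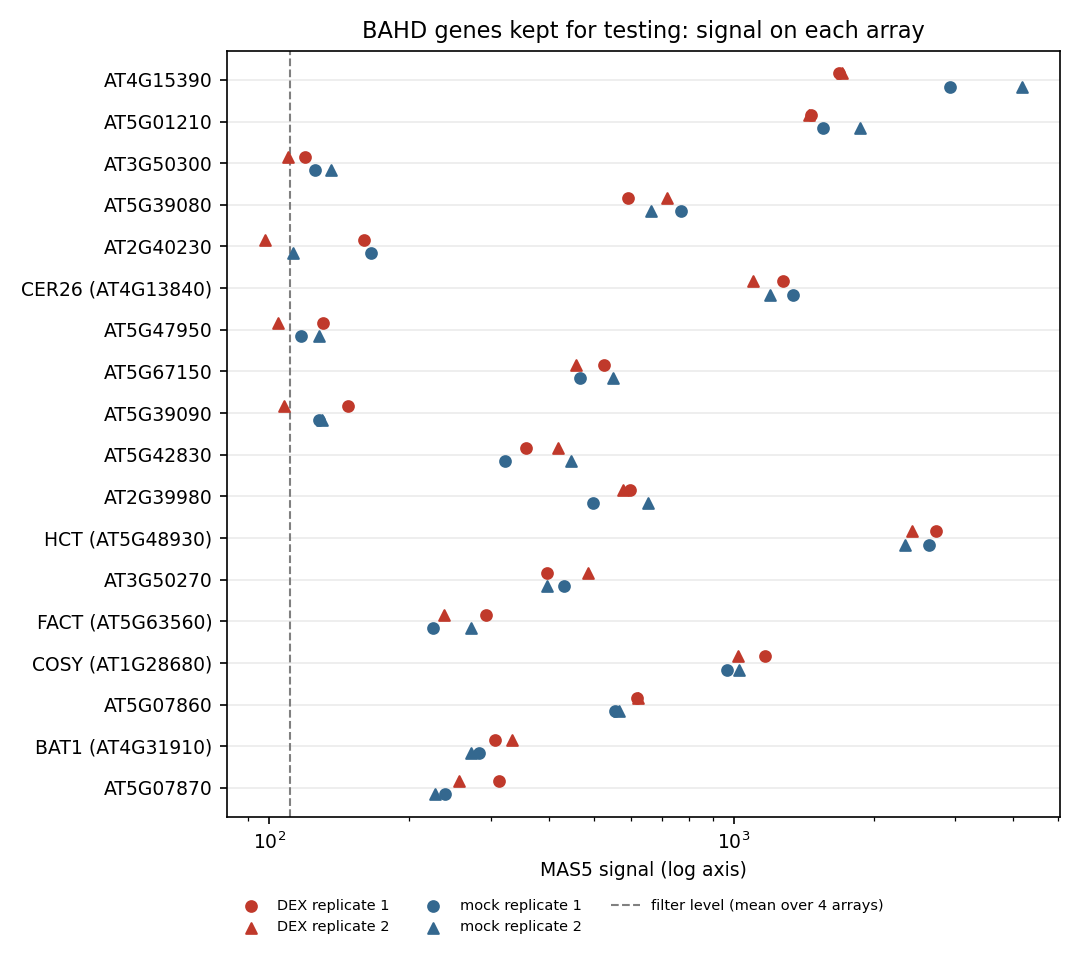
MAS5 signal on each array (log axis) for the 18 BAHD genes bright enough to test (rows), with DEX in red above mock in blue, and circles and triangles for replicates 1 and 2. AT4G15390 has DEX signals of 1681 and 1707 left of its mock signals of 2925 and 4172, while 12 of the 18 genes overlap between the groups. The dashed line is the filter level, which the mean over the 4 arrays had to reach.

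Members of the family often lie side by side in the genome. In the RefSeq gene order of TAIR10.1, 15 of the 55 loci fell into 6 runs in which the next member is at most 2 protein-coding genes away, on chromosomes 1, 3 and 5. AT4G15390 was in none of them at this cutoff, although the member AT4G15400, without a single-gene probe set, has a neighbouring locus code. Within 10 protein-coding genes on either side of AT4G15390, 2 loci had a probe set of their own, AT4G15420 and AT4G15430. They lie 7 and 8 genes away on the same side, and no nearer locus could be read. Their log2 changes were -0.00041 and 0.10, the second from mock signals as far apart as 101 and 170. In the run of AT5G07850, AT5G07860 and AT5G07870, the log2 changes were 0.47, 0.15 and 0.28, the first of them from signals of 2.4 and 2.49 on the DEX arrays and 1.6 and 1.95 on the mock arrays. In the run of AT3G50270, AT3G50280 and AT3G50300 they were 0.09, -0.48 and -0.19. None of these differences was tested between neighbours.

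The 25 loci left out as dim include several genes with a well known product. On 19 of them no array reached the filter level, and no detection calls were used here, so these signals may be background. Their log2 changes come from a fit of all probe sets without the filter. Their log2 changes had a median standard error of 0.52, against 0.15 for the 18 tested genes, and the median size of a change was 0.43, against 0.45 over all dim probe sets. Their DEX and mock arrays did not overlap in 13 of 25, 7 lower and 6 higher in DEX, beside 22.2% lower and 14.4% higher over all dim probe sets. In the fit without the filter 0 of the 43 loci were called, beside 0.11% of all probe sets, and 5 had an unadjusted p under 0.05 in limma, beside 8.04%.

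Those 5 were AT4G15390 and 4 dim genes. AT5G47980, the acyltransferase gene of the thalianol cluster, had 59.2 and 51.6 on the DEX arrays, against 125 and 101 on the mock arrays. Mock replicate 1 was the only array of this gene above the filter level, and the log2 change was -1.03 ± 0.27 (SE). CHAT (AT3G03480), which makes the leaf volatile hexenyl acetate, had 3.25 and 3.36 on the DEX arrays, against 30.6 and 21.8 on the mock arrays, and a log2 change of -2.97 ± 0.71 (SE). SDT (AT2G23510), a spermidine sinapoyltransferase, had 0.703 and 1.03 on the DEX arrays, against 7.32 and 11.2 on the mock arrays, and a log2 change of -3.41 ± 1.07 (SE). AT3G30280, named after its values were seen, had 47.3 and 37.7 on the DEX arrays, against 8.34 and 9.52 on the mock arrays, and a log2 change of 2.24 ± 0.52 (SE). In all 4 the groups did not overlap, but they were picked by their unadjusted p, so the lack of overlap adds no support. None of the 4 was called in that fit. Every signal of CHAT, SDT and AT3G30280 lay well under the filter level and may be background. Whether these genes differ, and by how much, is therefore uncertain.

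**Figure D4:**
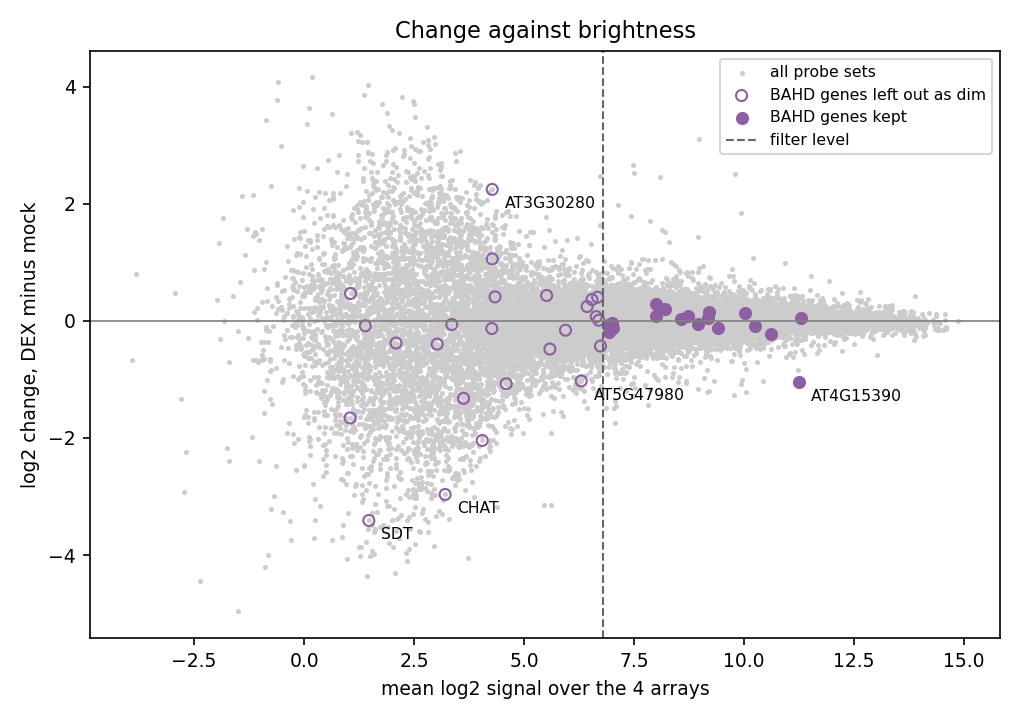
Log2 change, DEX minus mock (vertical axis), against the mean log2 signal over the 4 arrays (horizontal axis) for all probe sets (grey), the 18 tested BAHD genes (filled) and the 25 dim ones (open). Grey points spread widely left of the dashed filter level, where CHAT at -2.97, SDT at -3.41 and AT3G30280 at 2.24 lie. AT4G15390 at -1.04 lies to the right of it, as the 24th largest of the 7075 falls among tested probe sets.

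Of the other dim genes with a role, SHT (AT2G19070), which acylates spermidine in the anther, had 1.57 and 0.858 on the DEX arrays, against 10.6 and 1.27 on the mock arrays. AT2G25150, known as SCT, a spermidine coumaroyltransferase, had 11.8 and 8.55 on the DEX arrays, against 5.54 and 19.8 on the mock arrays. Both genes overlapped between the groups at signals far under the filter level. AT5G57840, a relative of HCT, had 102 and 135 on the DEX arrays, against 83.5 and 94.4 on the mock arrays. Its groups did not overlap, with DEX higher and a log2 change of 0.40 ± 0.25 (SE).

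AT5MAT (AT3G29590), which adds malonate to anthocyanins, had 60.3 and 46.8 on the DEX arrays, against 45.5 and 34 on the mock arrays. AT3G29635, of the same malonyltransferase branch, had 20 and 13.9 on the DEX arrays, against 38.4 and 32.1 on the mock arrays. The groups did not overlap in either, with DEX higher in AT5MAT, a log2 change of 0.43 ± 0.37 (SE), and lower in AT3G29635, one of -1.08 ± 0.49 (SE). AT3G23840, a CER2-like gene close to CER26, had 93.4 and 117 on the DEX arrays, against 130 and 82.4 on the mock arrays. GLC (AT1G65450), a gene of female reproductive development and the 1 locus with 2 probe sets, had 111 and 94.7 on the DEX arrays, against 75.1 and 127 on the mock arrays. Both genes overlapped fully, with log2 changes of 0.01 ± 0.29 and 0.07 ± 0.30 (SE). The signals of all 25 dim genes ran from 0.703 to 142 over the arrays, and 7 of the 25 stayed under 20 on every array.

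**Figure D5:**
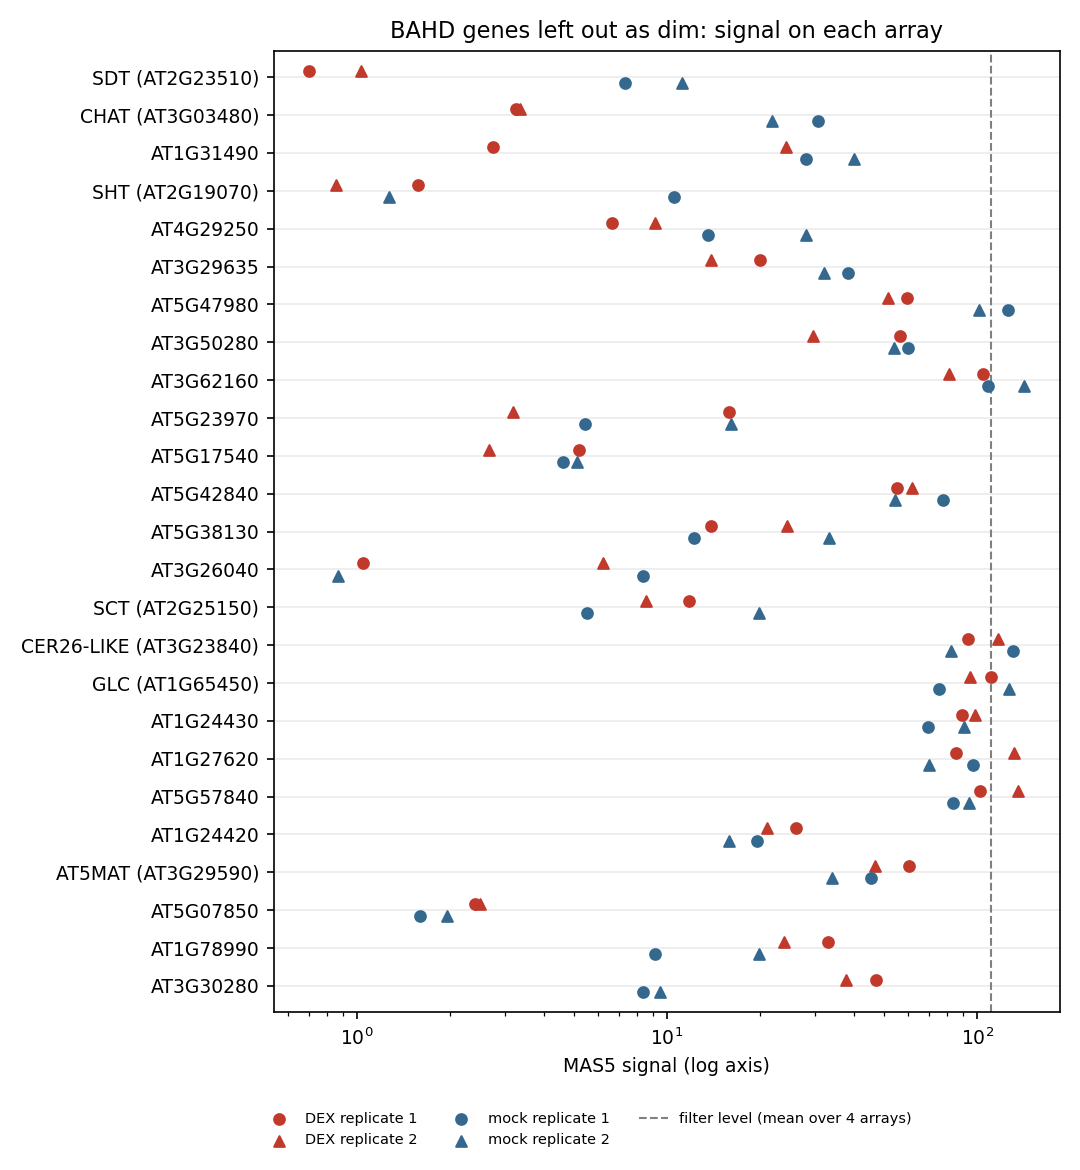
MAS5 signal on each array (log axis) for the 25 dim BAHD genes (rows), with DEX in red above mock in blue, and circles and triangles for replicates 1 and 2. In 19 of them all 4 arrays lie left of the dashed filter level, and in 12 of the 25 the groups overlap.

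For the other 12 loci the annotation lists no single-gene probe set, and they were not analysed here. They include BIA1 (AT4G15400), a brassinosteroid acyltransferase gene with a locus code next to that of AT4G15390, and the suberin and cutin genes RWP1 (AT5G41040), DCF (AT3G48720) and PEL3 (AT5G23940). CER2 (AT4G24510), PMAT1, PMAT2 (AT3G29670), AACT1 (AT5G61160), EPS1 (AT5G67160) and AT1G32910 are also among them. AT1G03940 and AT1G03495 are listed with a probe set that is paired with several genes, which the rule leaves out.

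Genes that supply or share the substrates of BAHD enzymes were read from lists written from general knowledge, with earlier results of these data known. Of 23 phenylpropanoid and coumarin genes, 5 had a probe set and 3 could be tested: 1 fell, 2 did not pass and 0 rose. Their median log2 change was -0.11. Of all tested probe sets 0.293% were called lower, and nothing is read from the count of 1 about the pathway. The gene that fell was AT3G13610, known as F6'H1, the hydroxylase that supplies the substrate of COSY. Its signal was 1663 and 1935 on the DEX arrays, against 2716 and 2771 on the mock arrays. The groups lay well apart, with a log2 change of -0.61 ± 0.11 (SE; adjusted p = 0.0494, limma). That call ended without DEX replicate 1 (log2 change -0.50, adjusted p = 0.509), without DEX replicate 2 (-0.72, adjusted p = 0.14, limma), without the filter, with one at the 60th percentile, and with robust variances or variances without a trend. The difference between its change and that of COSY was not tested.

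BGLU42 (AT5G36890), a glucosidase of scopolin, had 555 and 578 on the DEX arrays, against 621 and 602 on the mock arrays, and a log2 change of -0.11 ± 0.12 (SE). ALDH2C4 (AT3G24503), which makes ferulate and sinapate, had a log2 change of -0.03 ± 0.10 (SE). Neither passed the threshold. The other 2 genes of the list were dim. CCR2 (AT1G80820), a cinnamoyl-CoA reductase gene, had 86.7 and 96 on the DEX arrays, against 60 and 66.6 on the mock arrays, which did not overlap, and a log2 change of 0.53 in the fit without the filter. AT3G12900, a scopoletin hydroxylase gene, had 4.26 and 23.6 on the DEX arrays, against 4.12 and 11.5 on the mock arrays, which overlapped.

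Of 13 flavonoid and anthocyanin genes, 4 had a probe set and 1 could be tested. This was UGT78D2 (AT5G17050), a flavonoid glucosyltransferase gene, at a log2 change of 0.07 ± 0.11 (SE), which did not pass. The other 3 were dim. DFR (AT5G42800), the reductase at the entry to anthocyanins, had 88.3 and 81 on the DEX arrays, against 112 and 133 on the mock arrays. UF3GT (AT5G54060), an anthocyanin glycosyltransferase gene, had 57.1 and 59.2 on the DEX arrays, against 85.3 and 70.3 on the mock arrays. In DFR and UF3GT the DEX arrays lay below the mock arrays, with log2 changes of -0.53 and -0.41 in the fit without the filter. AT4G14090, a further glucosyltransferase gene of the list, had 84 and 57.8 on the DEX arrays, against 104 and 71.5 on the mock arrays, which overlapped. The lists for suberin, cutin and wax, for triterpene clusters and for brassinosteroid synthesis and inactivation, of 35, 16 and 11 genes, had 0 members on a single-gene probe set in the annotation used, and were not analysed here. That annotation lists 14016 of the 22810 probe sets, so genes it does not list may still be measured on the array by probe sets unnamed here.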

How the data were processed

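Total RNA, biotin-labelled, was hybridised to 4 Affymetrix arrays of 1 colour, 2 DEX and 2 mock, grouped by sample title. The authors deposited linear intensities from MAS5, a tool named in the submitters' processing notes (version and settings are not given in the sources used here). Each array's mean after trimming 2% at both ends is 500, so a change in total RNA cannot be seen. The number of arrays limits the precision. Of 22810 probe sets, 64 controls were left out. The rest were put on the log2 scale with no pseudocount, and a filter at the 40th percentile of the mean log2 value kept 13648. The annotation used lists 14016 probe sets. Those of 1 gene were matched by gene identifier to RefSeq's TAIR10.1 table (13436 matched); names known but absent there (COSY, CER26, F6'H1, SCT) are general knowledge. The array's genome build is not given in the sources used here, so no coordinates are printed.

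The comparison of DEX with mock used limma 3.58.1 under R 4.3.3, with a group term, moderated variances with a trend, and Benjamini-Hochberg adjustment over all kept probe sets, two-sided; each test had 9.74 degrees of freedom, 2 from the arrays. With 2 arrays against 2, the smallest two-sided p of an exact permutation test is 0.333. Alternatives were quantile normalization, median centring, other filters, a pseudocount of 0.712, other variance models, the replicate number as a block, all probe sets of a locus, and each array left out. The filter at the 20th percentile was chosen after seeing the data. The members and lists were chosen with earlier results of these data known. The rule for named genes took called members, the 16 tested members with the largest change, members with a role, and up to 3 genes of each pathway list with the lowest p. All 18 tested members and all measured pathway genes are named beyond it.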

Additional observations from a re-analysis of the deposited data

How the results depend on the processing

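The count of called probe sets over the whole table, 80, was 25 without the filter, 43 with a filter at the 60th percentile, 185 with the replicate number as a block, and 25 to 496 with 1 array left out. The count of called BAHD genes, 1, was 0 without the filter and 0 with variances without a trend. As described above, the call also ended with either DEX array left out. The cause of the lost calls was not tested. AT4G15390 had log2 changes from -1.3 to -0.788 over the 13 alternatives. Its groups did not overlap, so leaving out an array could not turn its direction. Filters and variance models do not enter its log2 change, so nothing is read from the kept direction. No other BAHD gene passed the threshold in any alternative that tested it. The median log2 change of the tested BAHD genes ran from -0.046 to 0.0804 with 1 array left out. Under at least 1 alternative, always a fit with 1 array left out, 11 of the 17 uncalled genes turned their sign. The replicate numbers carry no stated pairing, and same-numbered arrays deviated together at r = 0.109 across probe sets; the block changed no call among the BAHD genes. At dim signals the spread between arrays limits what can be seen: a 2-fold difference lies within about 2 standard errors for the median dim gene.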
